A study of Mus musculus with 6 samples.

Results

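The 40 genes described here encode axon guidance cues, their receptors and axonal adhesion molecules. They were taken from a list of gene names chosen with earlier results of these data known. All were found in the deposited files, and they are 40 of the 24661 genes listed there. They comprise 8 semaphorin ligands, 7 neuropilin and plexin receptors, 3 Slit ligands with 1 Robo receptor, 5 ephrin ligands, 5 Eph receptors, netrin-1 with 3 netrin receptors, 6 adhesion molecules of the immunoglobulin superfamily and 1 chemokine receptor. RNA-Seq was performed on olfactory mucosa, dissected whole with the olfactory epithelium and the tissue around it. There were 3 mice of each genotype, wild-type and RTP1,2DKO, all labelled C57BL/6 and 21 days old. RTP1 and RTP2 are accessory proteins that bring odorant receptors (ORs) to the surface of olfactory sensory neurons (OSNs). RTP1,2DKO mice are homozygous for null alleles of both genes in every cell of the body, and wild-type mice carry intact alleles. Per the methods of the study, both coding regions were replaced in a 129/B6 hybrid embryonic stem cell line with the stretch of chromosome 16 between them left in place. The line was then kept by crosses to C57BL/6, and the mice compared were sex-matched littermates. The study also asked where OSN axons go in the olfactory bulb, and the question put to these libraries is whether transcripts of the genes that steer and bundle those axons differ between the genotypes.

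Each mature OSN expresses a single OR gene, and the axons of all OSNs with the same OR gather in a few glomeruli of the olfactory bulb. Along the anterior-posterior axis the position of an axon follows its level of neuropilin-1 and of the repellent ligand Sema3A, which is set by cAMP signalling in the neuron. Along the dorsal-ventral axis axons that arrive early carry Robo2 and secrete Sema3F, and axons that arrive late carry neuropilin-2. Near the glomerulus axons are sorted by contact, through ephrin-A5 and EphA5, which repel, and through the homophilic adhesion molecules Kirrel2 and Kirrel3, and the levels of these molecules depend on neuronal activity.

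Total counts lay between 31125360 and 41636928 per mouse, and the 40 genes together took between 0.227% and 0.340% of them. Every one of the 40 had at least 50 counts in every mouse, and 37 had at least 300. Normalized counts are counts divided by a size factor per mouse, which ran from 0.907 to 1.147. The targeted genes were at 0.48% (Rtp1) and 0.532% (Rtp2) of wild-type in RTP1,2DKO mice. Rtp1 (chr16:23429133-23433960) gave 20522, 25301 and 13543 normalized counts in wild-type mice 1, 2 and 3 and 90.6, 85.5 and 109 in RTP1,2DKO mice 1, 2 and 3, and Rtp2 (chr16:23925548-23932394) gave 8497, 9510.5 and 7157 against 58.0, 26.2 and 51.0. Markers of the tissue's cell types were all detected in every mouse. Of 9 markers of mature OSNs 8 fell and all 9 lay lower in every RTP1,2DKO mouse than in every wild-type mouse, with summed normalized counts of 161671 to 186650 in wild-type and 81949 to 88586 in RTP1,2DKO mice. The geometric mean of the 9 in RTP1,2DKO mice was 44.7% of the wild-type value, a log2 difference of -1.16. In RNA from a whole tissue fewer cells of a type and less RNA per cell cannot be told apart.

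Of the 40 genes 7 fell and 1 rose in RTP1,2DKO mice (edgeR's quasi-likelihood test, Benjamini-Hochberg adjusted p under 0.05 over all 22152 genes tested). The 7 that fell were Sema7a, Plxna3, Epha7, Epha5, Cntn4, Plxna4 and Nrp1, and the 1 that rose was Cxcr4. This is 17.5% of the 40 called lower and 2.5% called higher, where 3.15% of all genes tested were called lower and 0.46% higher. The 40 were chosen with earlier results of these data known, so these shares are a description and not a test of the list. Among the 13348 genes that are not ORs and had a mean of at least 100 normalized counts, 1.96% were called lower and 0.367% higher. With the replicate number as a block 8 of the 40 were called lower and 1 higher, against 3.68% and 0.885% of all genes tested. All 3 RTP1,2DKO mice lay below all 3 wild-type mice for 10 of the 40 genes (25%) and above them for 3 (7.5%), against 9.24% and 7.17% of all genes tested, and 8.8% and 7.87% of the genes that are not ORs with a mean of at least 100. The 10 were the 7 genes that fell together with Slit1, Unc5b and Nfasc, and the 3 were Cxcr4, Efna2 and Ephb2. Without wild-type mouse 1 the 3 became 7, and without RTP1,2DKO mouse 2 they became 5. With a mouse left out fewer mice have to be separated for any gene. The shares over all genes are for the full set of mice, so the counts with a mouse left out have no share beside them. Fold changes were negative for 23 genes and positive for 17, and their median on the log2 scale was -0.03, against 0.02 over all genes tested.

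**Figure D1:**
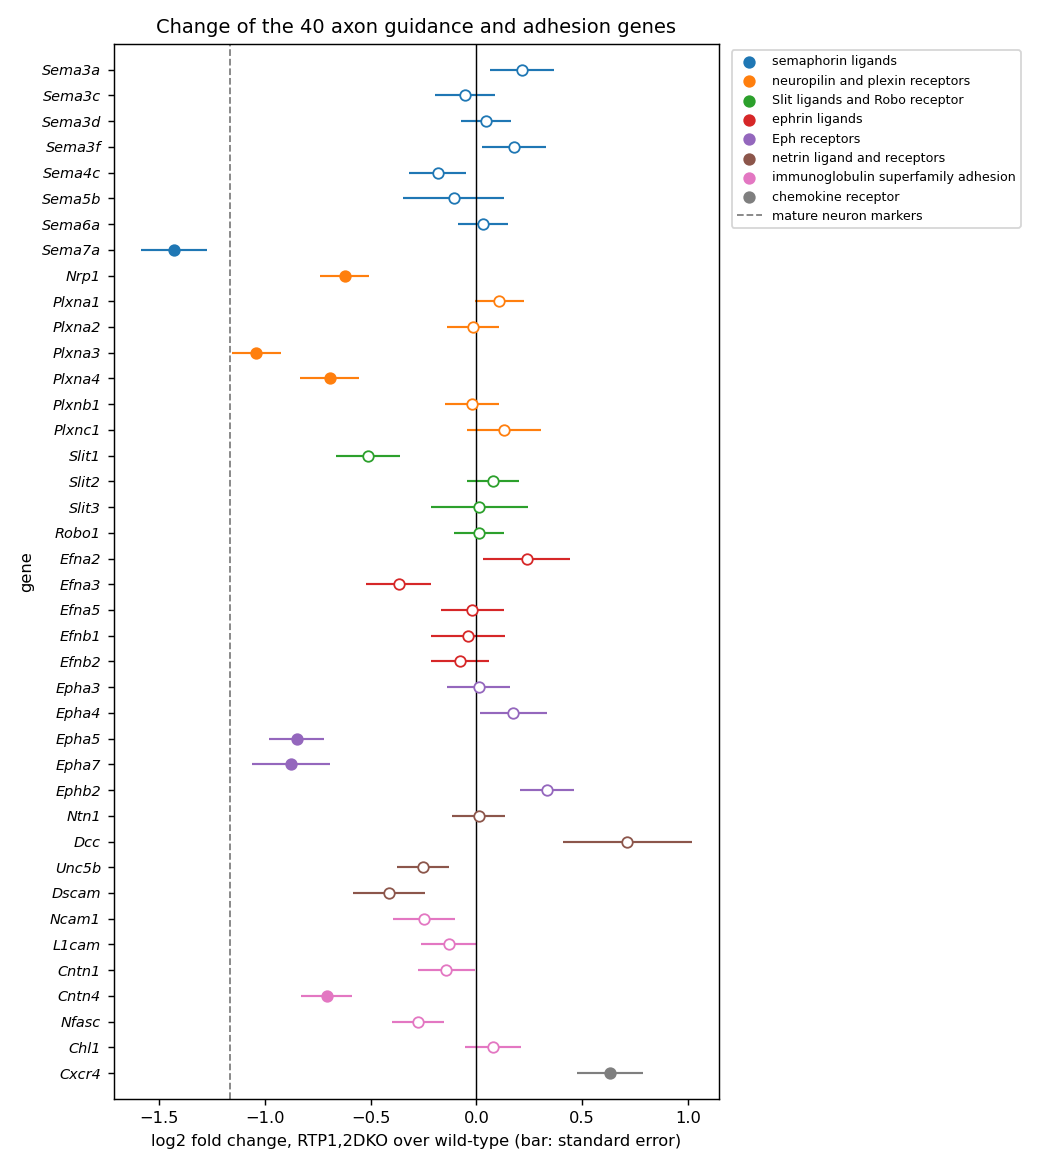
Log2 fold change of each of the 40 genes, RTP1,2DKO over wild-type, with 3 mice a group and bars of 1 standard error. Colours mark the role, filled points the 8 genes past the threshold, and the dashed line the mature OSN markers at -1.16. Sema7a at -1.43 lies left of the dashed line, and the open points of most other genes lie near 0.

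For 4 of the genes that fell the bases just before the transcription start are shown, because they are the stretch in which a shared control element of OSN genes would be looked for. Each is the 250 bases upstream of a RefSeq start (GRCm38.p6) and overlaps no annotated exon. The window is chr9:57939862-57940111 on the plus strand for Sema7a, chrX:74328816-74329065 on the plus strand for Plxna3, chr8:128358823-128359072 on the plus strand for Nrp1 and chr5:84417383-84417632 on the minus strand for Epha5. The Nrp1 window lies inside the annotated gene and outside its exons. Capitals mark a match to a motif searched for on both strands, all 4 of which read the same on either strand.
Sema7a: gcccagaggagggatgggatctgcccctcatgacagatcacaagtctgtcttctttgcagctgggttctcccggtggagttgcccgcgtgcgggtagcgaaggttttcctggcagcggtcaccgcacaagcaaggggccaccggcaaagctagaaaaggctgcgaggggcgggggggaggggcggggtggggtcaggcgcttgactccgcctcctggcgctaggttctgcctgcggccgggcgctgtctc
Plxna3: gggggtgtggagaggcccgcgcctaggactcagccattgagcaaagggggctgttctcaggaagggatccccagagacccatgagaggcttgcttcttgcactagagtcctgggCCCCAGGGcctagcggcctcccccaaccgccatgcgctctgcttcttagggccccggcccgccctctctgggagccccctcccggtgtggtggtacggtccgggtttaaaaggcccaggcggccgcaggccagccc
Nrp1: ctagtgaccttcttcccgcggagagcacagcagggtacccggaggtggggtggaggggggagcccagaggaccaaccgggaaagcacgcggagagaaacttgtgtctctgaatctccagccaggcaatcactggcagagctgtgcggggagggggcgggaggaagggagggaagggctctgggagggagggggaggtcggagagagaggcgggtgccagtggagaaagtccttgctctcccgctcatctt
Epha5: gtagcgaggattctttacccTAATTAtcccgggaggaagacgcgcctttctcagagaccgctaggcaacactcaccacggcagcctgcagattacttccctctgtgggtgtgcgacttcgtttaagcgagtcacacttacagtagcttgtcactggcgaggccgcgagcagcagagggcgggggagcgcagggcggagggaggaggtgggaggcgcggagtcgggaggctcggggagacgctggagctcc
The Plxna3 window held CCCNNGGG, the core of the site of the Olf1/EBF factors, 136 bases before the start. The Epha5 window held TAATTA, the core of homeodomain sites, 230 bases before the start. Neither these letters nor the CRE palindrome TGACGTCA stood in the Sema7a and Nrp1 windows. RefSeq start sites were matched for 32 of the 40 genes, with 40 windows in all. CCCNNGGG stood in 7 of the 40 windows (17.5%) and in 11.8% of 32817 windows of all genes. The same letters with a T before and an A after them stood in 2 (5%, those of Chl1 and Plxnb1) and in 0.780% of all. TAATTA stood in 2 (5%, those of Cntn4 and Epha5) and in 4.85% of all, and TGACGTCA in none of the 40 and in 1.55% of all. A match of letters is not a bound site, and binding was not measured.

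Of the 8 semaphorin ligands Sema7a alone passed the threshold. Sema7a (chr9:57940112-57962865, plus strand), a semaphorin anchored to the membrane by a lipid that binds plexin C1 and integrins, gave 3726, 2608 and 3127 normalized counts in wild-type mice 1, 2 and 3 and 981, 1329.9 and 1204 in RTP1,2DKO mice 1, 2 and 3. The highest RTP1,2DKO mouse had fewer counts than the lowest wild-type mouse, and RTP1,2DKO mouse 1 was the lowest of the 6. The level was 37.2% of wild-type (log2 fold change -1.43 ± 0.16 (SE), n = 3 and 3, adjusted p = 0.000198, edgeR's quasi-likelihood test), and the call held with each mouse left out. Sema3a, the repellent partner of Nrp1, gave 1345, 1164 and 949 in wild-type and 1535, 1190.4 and 1292 in RTP1,2DKO mice. The groups overlapped, and the log2 fold change was 0.22 ± 0.15 (adjusted p = 0.682, edgeR). Sema3f, the cue that repels axons bearing neuropilin-2, gave 1133, 853 and 954 against 950.5, 1076 and 1296. Its groups overlapped too, at 0.18 ± 0.15 (adjusted p = 0.762, edgeR). The other 5 were the secreted Sema3c (-0.05 ± 0.14) and Sema3d (0.05 ± 0.12) and the transmembrane Sema4c (-0.18 ± 0.13), Sema5b (-0.11 ± 0.24) and Sema6a (0.03 ± 0.12), all on the log2 scale, and none of them passed.

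Among the 7 receptors for semaphorins 3 fell, Plxna3, Plxna4 and Nrp1. Plxna3 (chrX:74329066-74344689, plus strand), the plexin that signals for Sema3F bound to neuropilin-2, gave 4265, 4429.9 and 4909.6 normalized counts in wild-type and 2129, 2334 and 2155 in RTP1,2DKO mice 1, 2 and 3. The 3 values of each genotype were close to each other and far from those of the other, at 48.6% of wild-type (log2 fold change -1.04 ± 0.12, adjusted p = 0.00023, edgeR's quasi-likelihood test). Plxna4 (chr6:32144268-32588192, minus strand), which signals for Sema3A bound to neuropilin-1, gave 7093, 6051 and 5422 in wild-type and 4136, 3276 and 4072 in RTP1,2DKO mice. The groups did not overlap, with RTP1,2DKO mouse 2 the lowest, and the level was 61.8% of wild-type (-0.69 ± 0.14, adjusted p = 0.012, edgeR). Without RTP1,2DKO mouse 2 the adjusted p of Plxna4 was 0.0748 (edgeR), and it stayed under 0.05 without any other mouse. Nrp1 (chr8:128358604-128503363, plus strand), the Sema3A receptor that marks posterior axons, gave 6979, 6686 and 5883 in wild-type and 4104, 4172 and 4423 in RTP1,2DKO mice. Every RTP1,2DKO mouse was below every wild-type mouse, at 65.0% of wild-type (-0.62 ± 0.12, adjusted p = 0.00766, edgeR). The other plexins were Plxna1 (0.11 ± 0.12), Plxna2 (-0.01 ± 0.12), the Sema4D receptor Plxnb1 (-0.02 ± 0.13) and the Sema7A receptor Plxnc1 (0.13 ± 0.17). None of these 4 passed the test, so within the plexin A group 2 of the 4 genes fell.

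Of the Slit ligands and Robo1 none passed edgeR's quasi-likelihood test, 1 of the 4 had an unadjusted p under 0.05, and DESeq2's Wald test called that 1. It was Slit1, a secreted repellent of axons bearing Robo receptors, which gave 1014, 780.5 and 798 normalized counts in wild-type and 691, 562 and 564 in RTP1,2DKO mice 1, 2 and 3. All RTP1,2DKO mice were below all wild-type mice, at 70.1% of wild-type (-0.51 ± 0.15, adjusted p = 0.105, edgeR). With the replicate number as a block its adjusted p was 0.0373 (edgeR), and with DESeq2's Wald test 0.0462. Slit2 (0.08 ± 0.12), Slit3 (0.01 ± 0.23) and the receptor Robo1 (0.01 ± 0.12) were within 1 SE of no change on the log2 scale.

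Ephrins and Eph receptors act at contact between cells, and here the receptors Epha5 and Epha7 fell while no ephrin passed edgeR's test. Of the 5 ephrin ligands 1 had an unadjusted p under 0.05 and DESeq2 called 0. Epha5 (chr5:84054761-84417382, minus strand) gave 2167, 1782 and 1820.3 normalized counts in wild-type and 933, 1123 and 1147 in RTP1,2DKO mice 1, 2 and 3. The groups did not overlap, and the level was 55.5% of wild-type (-0.85 ± 0.13, adjusted p = 0.00202, edgeR's quasi-likelihood test). Efna5, which encodes the ephrin that EphA5 binds, gave 4244, 4941 and 3729.9 against 5092, 3746 and 3900.2. The groups overlapped, at -0.02 ± 0.15 (adjusted p = 0.985, edgeR). Epha7 (chr4:28813131-28967499, plus strand), another receptor of ephrin-A ligands, gave 1164, 2015 and 2022 in wild-type and 922, 904 and 1005 in RTP1,2DKO mice. Wild-type mouse 1 was nearer to the RTP1,2DKO mice than to the other wild-type mice, although the groups did not overlap, and the level was 54.4% of wild-type (-0.88 ± 0.18, adjusted p = 0.0156, edgeR). The adjusted p of Epha7 was 0.0612 without wild-type mouse 2 and 0.0602 without RTP1,2DKO mouse 1 (edgeR). Efna2 (0.24 ± 0.21), Efna3 (-0.37 ± 0.15), Efnb1 (-0.04 ± 0.17), Efnb2 (-0.08 ± 0.14), Epha3 (0.01 ± 0.15) and Epha4 (0.17 ± 0.16) did not pass. Ephb2, a receptor of ephrin-B ligands, gave 776, 644 and 719 against 917, 906 and 870.2. Its RTP1,2DKO mice all lay above its wild-type mice without passing the threshold (0.33 ± 0.13, adjusted p = 0.28, edgeR).

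Netrin-1 attracts or repels axons through Dcc, Unc5 and Dscam receptors, and none of these 4 genes passed edgeR's quasi-likelihood test. At an unadjusted p under 0.05 there was 1 lower and 1 higher, and DESeq2 called 0. Dcc, which had the lowest level per kilobase of the 40 genes, gave 109.6, 90.6 and 72.8 normalized counts in wild-type and 216, 96.8 and 136 in RTP1,2DKO mice 1, 2 and 3. The groups overlapped, RTP1,2DKO mouse 1 was the highest, and the log2 fold change was 0.71 ± 0.30 (adjusted p = 0.368, edgeR). Ntn1 itself was at 0.01 ± 0.13, Unc5b at -0.25 ± 0.12 and Dscam at -0.41 ± 0.17.

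Of the 6 adhesion molecules of the immunoglobulin superfamily Cntn4 fell. Cntn4 (chr6:105677660-106699310, plus strand), a contactin that OSN axons carry in amounts that differ with the OR they express, gave 16554, 17442 and 14406 normalized counts in wild-type and 9779, 9819.5 and 10034 in RTP1,2DKO mice 1, 2 and 3. The 3 RTP1,2DKO mice were within a narrow range below every wild-type mouse, at 61.2% of wild-type (-0.71 ± 0.12, adjusted p = 0.00367, edgeR's quasi-likelihood test). Ncam1, the neural cell adhesion molecule found on all OSN axons, gave 18234, 17055 and 14779.7 against 16727, 11742 and 13731. The groups overlapped, at -0.25 ± 0.15 (adjusted p = 0.602, edgeR). Cntn1 (-0.14 ± 0.13) and the L1 family members L1cam (-0.13 ± 0.13), Nfasc (-0.28 ± 0.12) and Chl1 (0.08 ± 0.13) did not pass either, and for Nfasc all RTP1,2DKO mice were below all wild-type mice.

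Cxcr4 (chr1:128588199-128592293, minus strand), the receptor of the chemokine Cxcl12, was the gene that rose. It gave 931, 1023 and 729.9 normalized counts in wild-type and 1652, 1258 and 1253 in RTP1,2DKO mice 1, 2 and 3. All RTP1,2DKO mice were above all wild-type mice, with RTP1,2DKO mouse 1 the highest, at 155% of wild-type (0.63 ± 0.16, adjusted p = 0.0446, edgeR's quasi-likelihood test). This call was close to the threshold. It held without wild-type mouse 2 (0.0355) and was lost without each of the other 5 mice, where the adjusted p (edgeR) ran from 0.0541 to 0.196, the last without RTP1,2DKO mouse 1. Markers of other cell groups were measured beside it. All 5 markers of basal progenitors were higher in every RTP1,2DKO than in every wild-type mouse, with summed normalized counts of 4271 to 5659.7 in wild-type and 6334 to 8592 in RTP1,2DKO mice, although 0 of the 5 passed edgeR's test (5 had an unadjusted p under 0.05, and DESeq2 called 1). Of 6 markers of immature OSNs 2 rose, with sums of 31111 to 42394 and 40052 to 45676. Fold changes were positive for 5 of the 6 and negative for 1, Dcx. The 3 red blood cell markers summed to 54997 to 89701 and 87555 to 159854, with RTP1,2DKO mouse 1 the highest, and 0 of them passed edgeR's test (3 were higher at an unadjusted p under 0.05, and DESeq2 called 1). Median log2 fold changes were 0.02 for 4 markers of macrophages and 0.01 for 4 of endothelial cells. In both lists 0 passed edgeR's test, 0 had an unadjusted p under 0.05, and DESeq2 called 0. No marker of these lists was at 0 in any mouse, and their part in the change of Cxcr4 was not tested.

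**Figure D2:**
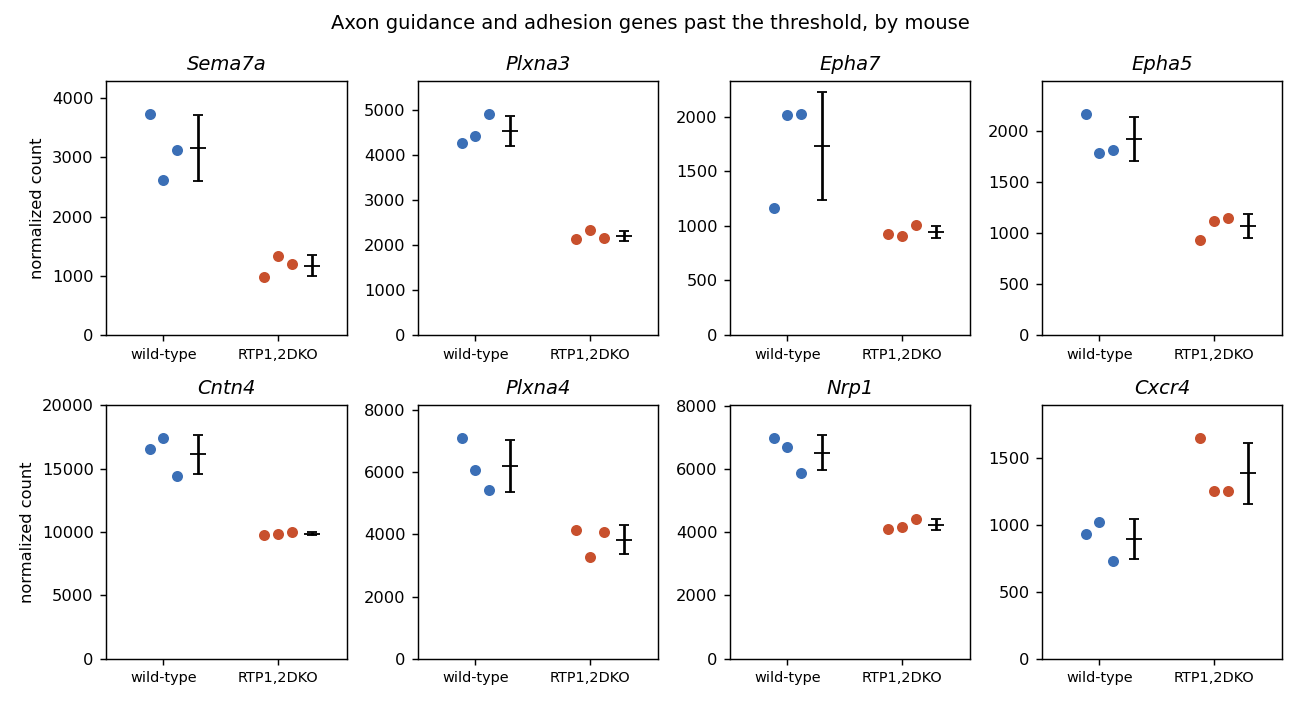
Normalized counts of the 8 genes past the threshold, 1 panel a gene, on linear axes that start at 0. Points are mice 1, 2 and 3 from left to right, and bars give the mean with the SD of 3 mice. In the 7 panels of genes that fell every RTP1,2DKO point lies below every wild-type point, and in the Cxcr4 panel every RTP1,2DKO point lies above.

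The 7 genes that fell did so in mice whose mature OSN markers were also lower, so each gene was set against the geometric mean of the 9 markers in the same mouse. On this ratio 36 of the 40 genes were higher in every RTP1,2DKO mouse than in every wild-type mouse, 0 were lower and 4 overlapped. The same was seen for most genes, since 85.2% of 18884 genes had all RTP1,2DKO ratios above all wild-type ratios and 1.39% had them below. The 4 that overlapped were Sema7a, Plxna3, Epha5 and Epha7. For Sema7a the log2 ratio was -1.40, -2.02 and -1.51 in wild-type and -2.19, -1.76 and -1.77 in RTP1,2DKO mice 1, 2 and 3. These ranges overlapped, with a difference of -0.26 (exact permutation test, two-sided, p = 0.4). For Plxna3 it was -1.21, -1.26 and -0.86 against -1.08, -0.95 and -0.93, a difference of 0.12 (exact permutation p = 0.4). The difference was 0.31 for Epha5 (p = 0.2) and 0.33 for Epha7 (p = 0.4), both by the exact permutation test. The other 3 genes that fell had higher ratios in RTP1,2DKO mice, by 0.46 for Cntn4, 0.47 for Plxna4 and 0.54 for Nrp1. The exact permutation p was 0.1 for each of these 3, the smallest that 3 mice against 3 allow. Set against Omp alone, a marker of mature OSNs, 32 of the 40 genes were higher without overlap, 1 was lower and 7 overlapped, where 77.4% of 18884 genes were higher and 1.5% lower. Of the genes that fell Nrp1 stayed higher in every RTP1,2DKO mouse, by 0.30 (exact permutation p = 0.1), whereas Cntn4 (0.22, p = 0.4) and Plxna4 (0.23, p = 0.5) overlapped, with p from the exact permutation test. Epha5 (0.07), Epha7 (0.09) and Plxna3 (-0.12) overlapped too, and Sema7a was lower in every RTP1,2DKO mouse than in every wild-type mouse, by a difference of -0.51 (exact permutation p = 0.1). Since the log2 difference of the 9 markers was itself -1.16, a gene whose counts do not change has a positive difference on the ratio to them. This difference was 1.39 for Sema3a and 1.14 for Efna5, whose counts did not pass the test, and 1.80 for Cxcr4. Other marker lists were lower in part. Of 4 markers of olfactory bulb neurons 3 were lower in every RTP1,2DKO mouse and 1 passed edgeR's test. The other, Tbr1, had a positive log2 fold change (0.58 ± 0.36) with overlapping groups. Summed counts of this list were 538 to 674 in wild-type and 336 to 391 in RTP1,2DKO mice, with no marker at 0. Of 4 markers of ciliated respiratory cells 2 were lower in every RTP1,2DKO mouse. For these cells 0 passed edgeR's test, 1 had an unadjusted p under 0.05, and DESeq2 called 1. The part of these lists, or of the mature OSN markers, in the change of the 7 genes was not tested.

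**Figure D3:**
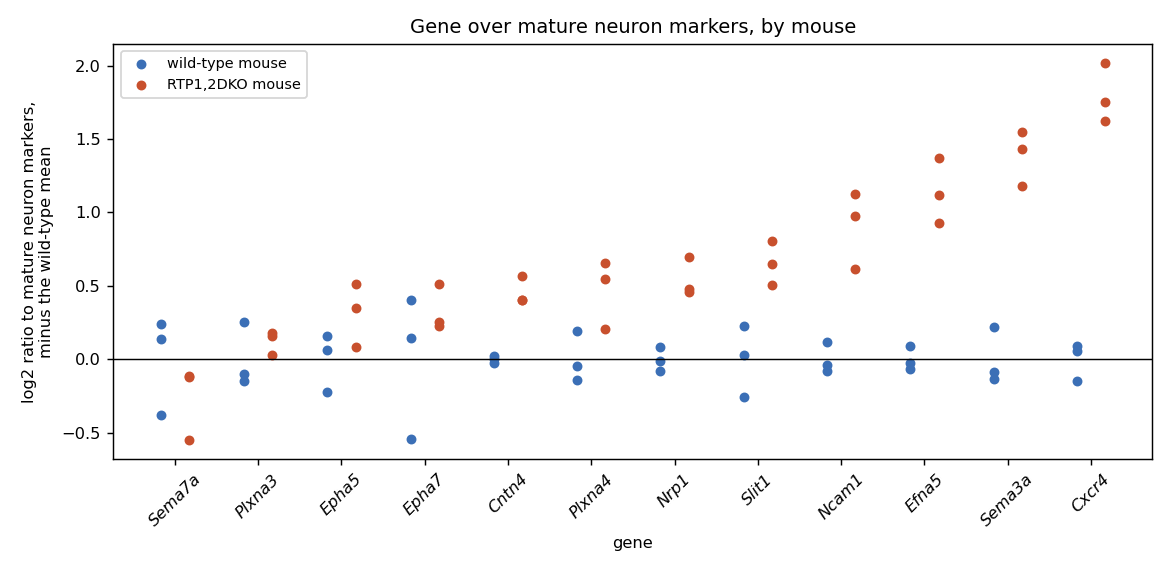
Log2 ratio of 12 of the genes to the geometric mean of the 9 mature OSN markers in the same mouse, less the mean of the 3 wild-type mice, with 1 point a mouse. Points of the genotypes mix for Sema7a, Plxna3, Epha5 and Epha7, and the RTP1,2DKO points of the other 8 genes lie above the wild-type points.

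The same families hold 56 further genes, and of these 3 fell and 0 rose by edgeR's quasi-likelihood test (6 lower and 0 higher at an unadjusted p under 0.05, and 3 and 0 by DESeq2's Wald test). The 3 are 5.36% of the 56, against 3.15% of all genes tested called lower. Kirrel3, a homophilic adhesion molecule of OSN axons, gave 851, 626 and 662 normalized counts in wild-type and 255, 219 and 245 in RTP1,2DKO mice 1, 2 and 3. Every RTP1,2DKO mouse was below every wild-type mouse, at 33.6% of wild-type (-1.57 ± 0.16, adjusted p = 0.000142, edgeR). Its relative Kirrel2, which marks axons of OSNs with high activity, gave 3489, 6613 and 9572 against 1334, 2918 and 4355. The wild-type mice were far apart and the groups overlapped, so that the log2 fold change of -1.19 ± 0.38 did not pass (adjusted p = 0.142, edgeR). The 3 mice stood in the same order by number in both genotypes. Each RTP1,2DKO mouse had 38.2%, 44.1% and 45.5% of the Kirrel2 count of the wild-type mouse with its number, and with the number as a block the log2 fold change was -1.23 (adjusted p = 5.64e-05, edgeR). No label says which mice share a litter, so this call rests on a pairing inferred from the numbers. The same pairs gave 30.0%, 35.0% and 37.0% for Kirrel3. The other 2 genes that fell are semaphorins. Sema3e, a ligand of plexin D1, gave 1707, 2336 and 2150.0 against 1079, 1251 and 1268, with no overlap (-0.78 ± 0.14, adjusted p = 0.00512, edgeR). Sema6c, a transmembrane semaphorin, gave 1253, 1161 and 1397 against 783, 740.4 and 691, again with no overlap (-0.78 ± 0.13, adjusted p = 0.00277, edgeR).

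The partners of the mapping molecules were measured in the same libraries. Nrp2, the Sema3F receptor of late axons, was at 0.01 ± 0.16 on the log2 scale (adjusted p = 0.995, edgeR), and Robo2, the Slit receptor of early axons, at -0.18 ± 0.12 (adjusted p = 0.669, edgeR). Cxcl12, the ligand of Cxcr4, gave 5307, 6289 and 6462 in wild-type and 7215, 6882 and 6673 in RTP1,2DKO mice. All RTP1,2DKO mice were above all wild-type mice, at 0.20 ± 0.12 (adjusted p = 0.6, edgeR), which did not pass. For the anterior-posterior pair the receptor Nrp1 fell and the ligand Sema3a did not pass. For the contact pair the receptor Epha5 fell and the ligand Efna5 did not pass. The difference within a pair was not tested, and counts of whole mucosa do not show which cells the RNA of either partner came from. Of 2 vomeronasal neuron markers Trpc2 was higher in every RTP1,2DKO mouse (0.46 ± 0.14) and Vmn2r1 overlapped (-0.09 ± 0.23). Neither passed edgeR's test, and their part was not tested.

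**Figure D4:**
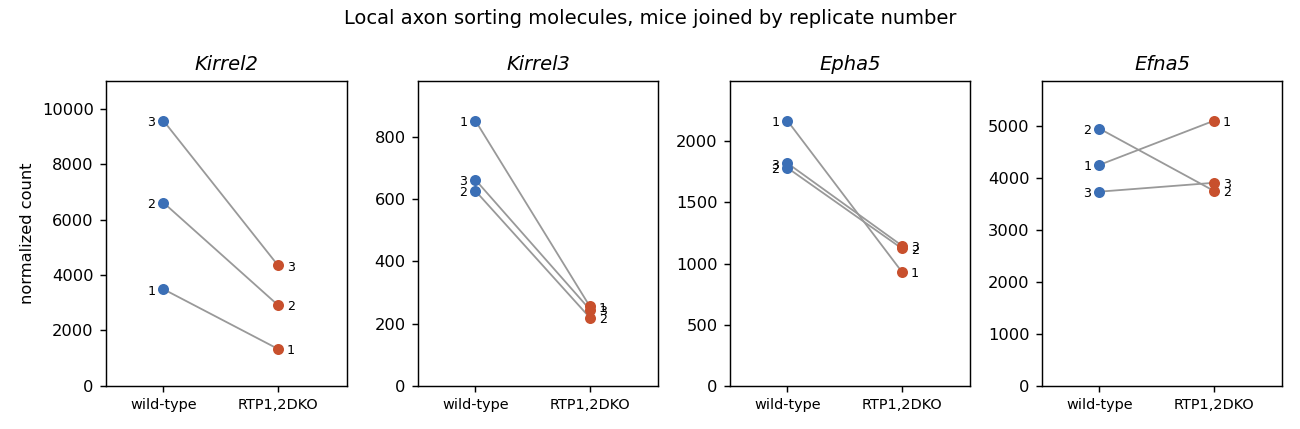
Normalized counts of the contact sorting molecules Kirrel2, Kirrel3, Epha5 and Efna5, on linear axes from 0, with lines joining the wild-type and the RTP1,2DKO mouse of the same replicate number. The lines fall in all 3 pairs for Kirrel2, Kirrel3 and Epha5, and for Efna5 they fall in 1 pair and rise in the other 2. The pairing is inferred from the numbers, as no label says which mice share a litter.

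Levels per length were compared between genes as normalized counts per kilobase of effective transcript length. In wild-type mice they ran from 3609.9 ± 338 (SD, n = 3) for Cntn4 to 9.31 ± 1.87 for Dcc. Adhesion molecules led the order, with Cntn4 followed by Ncam1 (2897 ± 312), and then came Efna3 (2218 ± 415), Nrp1 (1215 ± 106), Sema7a (1153 ± 205) and Efna5 (921 ± 131). The ranges of Cntn4 and Ncam1, of Efna3 and Nrp1 and of Efna5 and the next gene, Plxna1, did not overlap, whereas those of Ncam1 and Efna3, of Nrp1 and Sema7a and of Sema7a and Efna5 did. Over the whole order 8 of 39 pairs of neighbours had wild-type ranges that did not overlap. In RTP1,2DKO mice the mean level per kilobase was 2176 for Cntn4 and 2435 for Ncam1, but Cntn4 was the higher of the 2 in RTP1,2DKO mouse 2 and the ranges overlapped. Of the genes that fell, 3 of the 7 were among the 5 highest in wild-type mice, and Plxna3, Plxna4, Epha7 and Epha5 ranked 8, 13, 19 and 21. A link between level and fall was not tested.

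**Figure D5:**
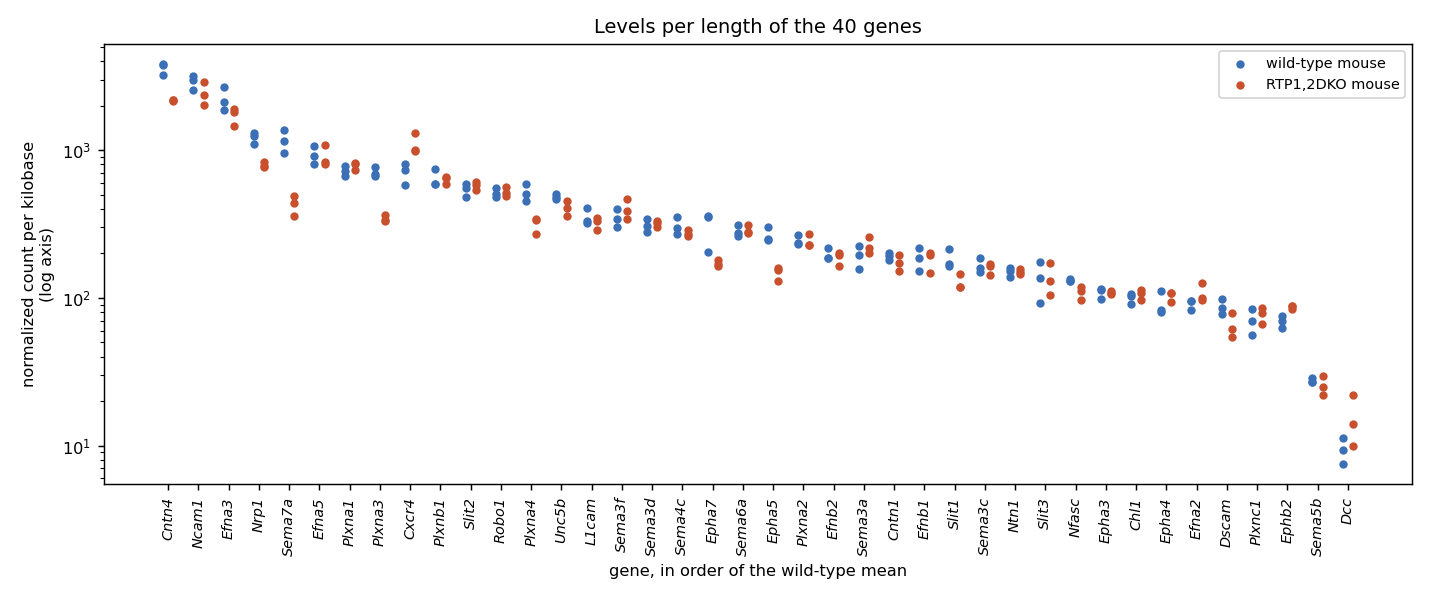
Normalized counts per kilobase of the 40 genes in each of the 6 mice, on a log axis, in the order of the wild-type mean. Wild-type means run from 3609.9 ± 338 for Cntn4 to 9.31 ± 1.87 for Dcc (SD of 3 mice).

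For 12 of the 40 genes several transcripts were listed, 35 in all, and the shares of a gene's counts that each took were compared. For 4 of the 35 transcripts the shares did not overlap between genotypes, 3 of them of Slit2 and 1 of Epha7. This is 11.4%, near the 8.55% of 15658 transcripts of all genes with several listed transcripts and a mean of at least 100 counts. The 9958-base transcript of Slit2 took 65.2%, 42.3% and 70.5% in wild-type and 86.9%, 89.2% and 80.3% in RTP1,2DKO mice 1, 2 and 3, and the 9915-base transcript took 21.3%, 23.4% and 18.8% against 0%, 0% and 12.2%. The transcripts of Slit2 are of nearly the same length, and kallisto estimates how reads that fit several transcripts are divided among them. The 3272-base transcript of Epha7 took 7.1%, 7.4% and 6.0% in wild-type and 8.1%, 12.1% and 8.8% in RTP1,2DKO mice. Each of these had an exact permutation p of 0.1, the smallest possible, and over 35 transcripts none can pass a correction. The 4 transcripts became 10 without wild-type mouse 2, 9 without RTP1,2DKO mouse 2, and 7 without wild-type mouse 3 or RTP1,2DKO mouse 1. Fewer mice have to be separated there for any transcript. The 8.55% is for all 6 mice, so these counts have no share over all genes beside them. The total count of Slit2 did not pass the test. Ncam1 was split among 4 transcripts, of which the 6192-base form took between 65.9% and 74.4% in the 6 mice, with overlapping groups.

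Robo1, Epha3, Dscam and Sema5b lie on chromosome 16, as do the targeted genes. Their log2 fold changes ran from -0.41 to 0.01, and none of the 4 passed edgeR's test (1 had an unadjusted p under 0.05, and DESeq2 called 0). Sema5b (chr16:35541145-35664732), Epha3 (chr16:63543534-63864175), Robo1 (chr16:72308306-73046095) and Dscam (chr16:96590840-97170752) all lie far from Rtp1 and Rtp2. The further family gene Ephb3 (chr16:21204755-21223305) was at -0.07 ± 0.15 (adjusted p = 0.928, edgeR). Effects of sequence linked to the targeted genes were not tested.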

How the data were processed

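Olfactory mucosa was sequenced by RNA-Seq in 6 mice, 3 of each genotype. The authors ran kallisto on each library against UCSC mouse transcripts (mm10 per the labels) with extended OR annotations and deposited estimated counts and TPM per transcript. The version of kallisto was not given in the sources used here. Estimated counts were summed per gene and rounded. The deposited TPM values served only as an alternative for transcript shares. Reads shared by similar genes or transcripts are divided by estimation, so single transcript shares are less certain than gene totals.

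The 22152 genes with 1 count or more in any mouse were fitted with edgeR 4.0.16 (quasi-likelihood test, R 4.3.3), scaled by DESeq2 1.42.0 size factors, with Benjamini-Hochberg adjustment at 0.05. SE is the fold change divided by the square root of F. Ratios and shares were compared by two-sided exact permutation tests in Python 3.11.15 (numpy 2.4.6, pandas 2.3.3, scipy 1.17.1), and figures drawn with matplotlib 3.10.9. The code of the fits was also run on simulated counts, with mice drawn independently and a spread that followed the mean count. That setting is simpler than these data, and no result here rests on it. Positions came from GENCODE M21 (GRCm38).

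The labels number the mice 1 to 3 in each genotype, and the methods describe sex-matched littermates. Deviations from the group means over 18133 genes with a mean of at least 10 normalized counts correlated at 0.139, 0.179 and 0.103 within a number and from -0.219 to 0.0934 between numbers, so the numbers were taken to pair the mice. No label says which mice share a litter, and these correlations come from the same data. Deviations within a group cancel, so the values within and between numbers are not independent. The lowest value within a number, 0.103, was close to the highest between numbers, 0.0934, so the pairing is weakly based. The study's fit has no block, so the paired fit is an alternative. Also tried were edgeR's filterByExpr, TMM scaling, DESeq2's Wald test, Omp alone as the marker, shares of TPM, and each mouse left out. Depth limits single values by counting error and by the spread of 3 mice. Values were printed in every mouse for members past the threshold and for the mapping pairs, and all 40 members were named. Members and lists were chosen with earlier results of these data known.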

Additional observations from a re-analysis of the deposited data

How the results depend on the processing

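No fold change reported above changed sign while past the threshold. Several that did not pass it did change sign with 1 mouse left out, among them Efna5 (-0.17 to 0.09), Slit3 (-0.20 to 0.25) and Nrp2 (-0.12 to 0.21). Over all genes tested 799 were called, against 801 with TMM normalization, 748 with the filter on low counts, 1112 with DESeq2's Wald test, 1012 with the replicate block and 598 to 777 with 1 mouse left out. Of the 40 genes 7 were called lower, against 8 with the replicate block and with DESeq2 and 6 to 7 with 1 mouse left out. Over all genes 697 were called lower, against 816 with the block, 895 with DESeq2 and 533 to 686 with 1 mouse left out. The 1 of the 40 called higher became 0 with the filter on low counts (edgeR, 3 at an unadjusted p under 0.05), and was 0 to 1 with 1 mouse left out. Over all genes 102 were called higher, against 81 with the filter and 52 to 132 with 1 mouse left out. With the replicate block the adjusted p of Slit1 was 0.0373 and that of Kirrel2 5.64e-05 (edgeR), and the block changed no other call of a gene named above. The adjusted p of Cxcr4 was 0.0591 with the filter (edgeR). Kirrel2 passed without wild-type mouse 1 (0.0275) and without RTP1,2DKO mouse 3 (0.0308), where the log2 fold changes were -1.50 and -1.63. The cause of these changes was not tested.

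Genes without overlap numbered 10 lower and 3 higher, the same with TMM normalization. With 1 mouse left out they numbered 10 to 14 lower and 3 to 7 higher, but fewer mice have to be separated there. The shares over all genes are for the full set of mice, so these ranges have no share beside them. DESeq2, the filter and the block give no other value for the genes without overlap. Of the ratios to mature OSN markers 0 were lower without overlap, 1 with Omp alone (Sema7a, named after its value was seen), and 0 to 1 with 1 mouse left out (1 without wild-type mouse 2). Transcripts whose shares did not overlap numbered 4, also 4 with shares of TPM, and 4 to 10 with 1 mouse left out, where again fewer mice have to be separated.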
